A study of Mus musculus with 12 samples.

Results

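A set of 5245 regions of the 4T1 genome carried an ATAC-seq peak in each of the 3 control libraries and in none of the 3 libraries treated with decitabine (DAC). They are called closed regions here, a name for a pattern of peak calls. The closed regions were selected on the peak calls of these same 6 libraries, so their presence in controls and their absence under DAC is the rule itself and was not tested. Peak intervals on chromosomes 1 to 19 and X that overlapped by at least 1 bp were merged into 146712 regions, and the closed ones made up 3.58% of these. Among the 79479 regions called in all 3 controls they made up 6.6%.

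The DAC-treated 4T1 cells had received 1 µM DAC for 48 h, and the control 4T1 cells carry no treatment label. DAC-treated B16F10 cells had received 0.1 µM DAC for 48 h, again beside cells with no treatment label. Each of these 4 groups held 3 libraries, and no vehicle is named for the controls. Both lines grew in the same medium, and dead cells were taken out with magnetic beads before nuclei were transposed, so that the libraries describe the surviving cells. 4T1 is a mouse mammary carcinoma line and B16F10 a mouse melanoma line, and both are transplantable tumour models. Nothing in the labels says that the replicates came from separate cultures, so the spread between libraries may be technical.

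In ATAC-seq a transposase cuts and tags DNA that is not wrapped in nucleosomes, so that active promoters, enhancers and insulator sites stand out as peaks. Decitabine is a cytidine analogue that is built into replicating DNA, traps DNA methyltransferases and lowers methylation of CpG dinucleotides in the daughter strands. Distal enhancers of epithelial tumour cells are often held open by AP-1 (dimers of Fos and Jun proteins), by TEAD factors, through which the Hippo pathway coactivators YAP and TAZ act, and by RUNX factors, while CTCF marks insulators and loop anchors in most cell types.

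The 4T1 lists held 110491, 118438 and 107938 peaks in the DAC libraries, against 89727, 94174 and 92032 in the controls, so the closed regions lacked a peak in the longer lists. The longer lists had the lower fold enrichment, the read pileup of a peak over its local background. Its median over all listed peaks was 5.84, 5.60 and 6.05 in DAC libraries 1, 2 and 3, against 8.38, 8.07 and 8.18 in the controls. The part of this lower enrichment in the closed calls was not tested. Read totals are not in the lists, and the labels give only a minimum depth. The label of the line was met by its markers: 14 of 16 mammary epithelial genes, among them Krt8, Krt18, Epcam and Cdh1, had a promoter peak in 3 of 3 DAC libraries and in 3 of 3 controls, while the basal markers Krt5 and Trp63 had none in any library and the basal keratin Krt14 had one in all 6. Of 9 melanocyte genes, 7 had no promoter peak in any control, Tyr, Dct and Sox10 among them, although Pax3 and Kit had one in all 3 DAC libraries. The others, Mitf and Pmel, had one in 3 of 3 DAC libraries and 3 of 3 controls. Of 9 leukocyte genes, 7 had no promoter peak in any control, Ptprc and Cd3e included. Spi1, which encodes the myeloid factor PU.1, had one in 0 of 3 DAC libraries and 3 of 3 controls, a closed region itself. Csf1r had one in 1 of 3 DAC libraries and 2 of 3 controls. Of 7 fibroblast and endothelial genes, 6 had none in any control, while Pecam1 had one in 1 of 3 DAC libraries and 3 of 3 controls.

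The sequences below show what the closed regions of highest rank look like at their strongest summit in control cells. The rank of a region is the lowest of its 3 control percentiles of −log10 q, so that a high rank needs a strong peak in every control. Each line holds 101 bases of the plus strand of GRCm38 (mm10), from the NCBI RefSeq copy of that assembly, and capitals mark matches to 4 motifs on either strand: AP-1 (TGACTCA), TEAD (CATTCCA, and also the variant CATTCCT), RUNX (TGTGGTT) and CTCF. The first 5 are the closed regions of highest rank with an AP-1 match in this window. They lie in an intron of Tex264 (chr9:106681143-106681243), in an intron of P2ry2 (chr7:101007998-101008098), between genes nearest to Slc8a1 (chr17:82087297-82087397), between genes nearest to Ttll7 (chr3:147249588-147249688) and in an intron of Nhs (chrX:162055780-162055880).
Tex264: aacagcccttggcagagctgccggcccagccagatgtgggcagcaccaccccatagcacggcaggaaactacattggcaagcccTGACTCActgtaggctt
P2ry2: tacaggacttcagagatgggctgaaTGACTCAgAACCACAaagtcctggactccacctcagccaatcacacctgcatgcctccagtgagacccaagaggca
Slc8a1: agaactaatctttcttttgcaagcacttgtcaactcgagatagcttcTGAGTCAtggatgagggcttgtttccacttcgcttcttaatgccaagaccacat
Ttll7: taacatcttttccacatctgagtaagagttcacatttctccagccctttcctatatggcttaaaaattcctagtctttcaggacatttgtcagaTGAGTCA
Nhs: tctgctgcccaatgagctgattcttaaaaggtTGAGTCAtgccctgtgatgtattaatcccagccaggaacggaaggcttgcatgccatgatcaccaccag
The sequence at P2ry2 holds its RUNX match a single base after its AP-1 match. The next pair are the regions of highest rank with an AP-1 and a TEAD match in the same window, both intergenic, nearest to Siah1a (chr8:86802182-86802282) and to Rasgrp1 (chr2:117598451-117598551).
Siah1a: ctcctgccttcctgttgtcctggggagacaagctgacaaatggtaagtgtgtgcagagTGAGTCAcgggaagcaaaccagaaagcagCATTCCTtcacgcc
Rasgrp1: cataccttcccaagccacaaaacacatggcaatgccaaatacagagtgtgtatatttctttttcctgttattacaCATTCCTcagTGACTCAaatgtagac
CTCF matches are shown at the promoter of Def8 (chr8:123422613-123422713) and between genes nearest to Wtap (chr17:12996495-12996595), because among closed regions with any of the 4 motifs those with CTCF most often had a B16F10 peak. Chosen by rank, the Def8 and Wtap regions themselves had no peak in any B16F10 library.
Def8: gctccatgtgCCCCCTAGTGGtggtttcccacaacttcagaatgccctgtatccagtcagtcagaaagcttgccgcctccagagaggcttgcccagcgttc
Wtap: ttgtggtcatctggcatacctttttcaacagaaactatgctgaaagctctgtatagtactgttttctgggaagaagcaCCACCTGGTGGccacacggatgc
The last 3 are the regions of highest rank with a RUNX match, in introns of Entpd3 (chr9:120545495-120545595) and Cyb561 (chr11:105948367-105948467), and the promoter region of Slmap (chr14:26536046-26536146), the next promoter after that of Def8.
Entpd3: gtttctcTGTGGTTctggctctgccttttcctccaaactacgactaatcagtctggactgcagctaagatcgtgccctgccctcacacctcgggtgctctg
Cyb561: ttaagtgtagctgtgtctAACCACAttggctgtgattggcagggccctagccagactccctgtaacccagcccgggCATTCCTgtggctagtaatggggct
Slmap: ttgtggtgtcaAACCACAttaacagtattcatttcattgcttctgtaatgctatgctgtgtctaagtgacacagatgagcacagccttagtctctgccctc
Few CpG dinucleotides occur in these windows, between 0 and 3 per 101 bases. The region at Cyb561 joins a RUNX and a TEAD match.

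Closed regions were weak peaks in control cells. Fold enrichment is the authors' value for a peak, its read pileup over the local background of the same library. Its median over the closed regions was 4.68, 4.79 and 4.74 in control libraries 1, 2 and 3, and the highest value of any closed region was 17.8, 19.8 and 19.5. Their median rank was 15.1 on a scale to 100, against 60.5 for the 67038 regions called in all 6 libraries, which had a median fold enrichment of 10.6. Split into 5 parts of about equal size by rank, the regions called in 3 controls were closed in 23.8% of cases in the weakest part (3728 regions), in 8.04% in the second (1289), in 1.39% in the third (221) and in 0.0440% in the fourth (7). None of the 15896 regions of the strongest part was closed. Just outside the rule lay 3156 regions with 3 control calls and 1 DAC call, with a median rank of 20.2 and a median fold enrichment of 5.34, and 3479 regions with 2 control calls and no DAC call, with a median of 3.79. The closed regions, at 4.74, lay between these neighbours.

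**Figure D1:**
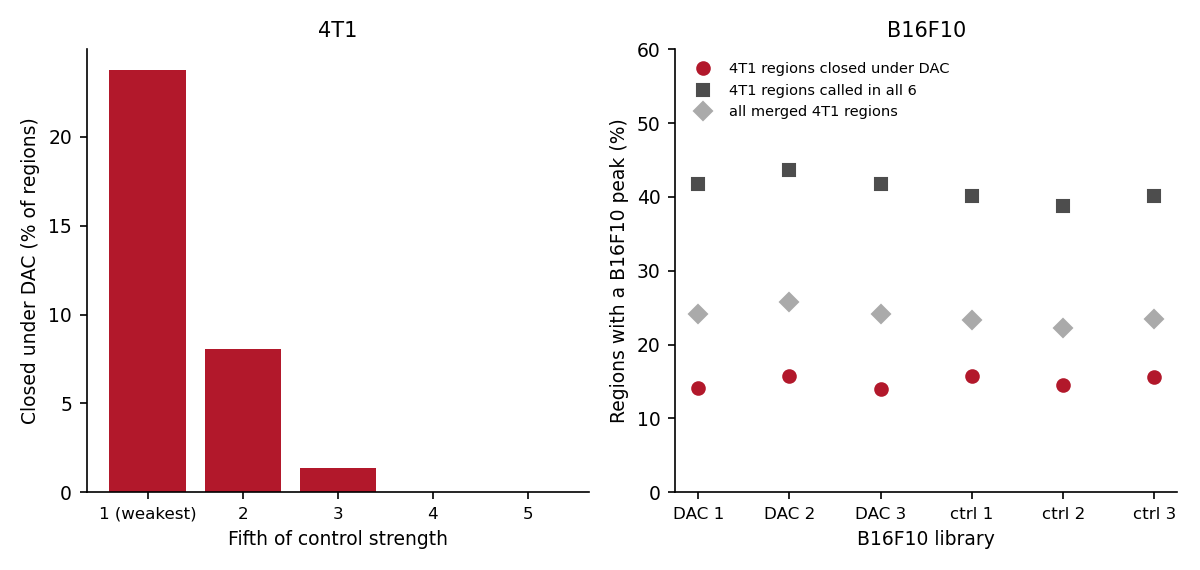
Left, percent of 4T1 regions called in 3 controls that were closed under DAC (vertical axis), by part of control rank from weakest to strongest, numbered 1 to 5 (horizontal axis). Right, percent of 4T1 regions of 3 classes that overlap a peak of each B16F10 library (3 DAC and 3 control). Closing falls from 23.8% in the weakest part to 0 in the strongest, and each B16F10 library has a peak at between 13.98% and 15.81% of the closed regions.

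The read pileup behind each peak could be recovered, because fold enrichment and p-value together fix it. The genome-wide background, the floor that the peak caller uses, was 5.89, 6.504 and 5.28 reads in DAC libraries 1, 2 and 3, against 4.13, 4.43 and 4.01 in the controls. That is a mean of 5.89 ± 0.613 under DAC and 4.19 ± 0.215 in controls (SD, n = 3 each), or 1.41 times as high under DAC. The groups do not overlap, and no test was made. At this floor, the lowest pileup of any listed peak was 15, 16 and 14 reads in the DAC libraries, against 12, 12 and 11 in controls. The closed regions had a median pileup of 30, 32 and 29 reads in controls 1, 2 and 3. The lowest listed pileup was thus 2.55, 2.46 and 2.65 times the background in DAC libraries 1, 2 and 3, while the closed regions at the floor had a median of 6.29, 6.32 and 6.23 times the background in the 3 controls.

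Of the 5244 closed regions with a recovered pileup in all controls, 3262 (62.2%) sat at the genome-wide floor in all 3 controls. Of these, 1713 (52.5%) exceeded 2 times a level of 2.65 times the background, the highest of the lowest listed levels of the 3 DAC libraries, and 37 exceeded 5 times that level. These counts describe the controls and give no size of a drop. A further 1787 regions (34.1%) stood on a raised local background in all 3 controls. These crowded regions had a median distance of 2786 bp to the nearest region called in all 6 libraries, and 85.2% had such a region within 5 kb. For regions at the floor the median distance was 12936 bp, and 8.15% had one within 5 kb. Neither the pileup nor the local background under DAC is known at a region with no listed peak, so the size of the drop cannot be given for any closed region. Peak lists of bulk cells also cannot tell fewer cells with an open region apart from less accessibility in each cell. The higher background of the DAC libraries moves with the rule, and its part in the closed calls was not tested.

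**Figure D2:**
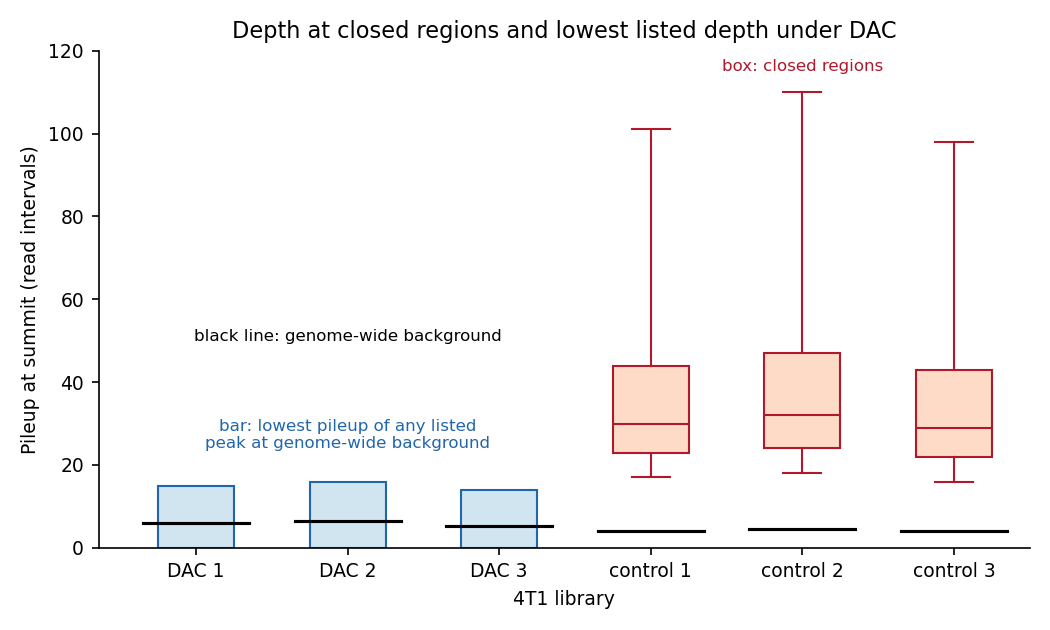
Read pileup at the summit (vertical axis, read intervals) for the 6 4T1 libraries. Bars for DAC 1 to 3 give the lowest pileup of any peak listed at the genome-wide background (15, 16 and 14), boxes for controls 1 to 3 give the closed regions (line, median; box, quartiles; whiskers, percentiles 5 and 95), and black lines give the genome-wide background. The medians of 30, 32 and 29 lie above all 3 bars.

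Closed regions were short, distal and poor in CpG. Their median width was 339 bp, against 757 bp for regions called in all 6 libraries, 447 bp for regions called in DAC alone and 461 bp for all merged regions. Width was partly set by the rule, since merging peaks of more libraries widens a region and a wider region meets a DAC peak more readily. They lay in introns in 2729 cases (52.0%), between genes in 2032 (38.7%), in exons in 347 (6.62%) and at promoters, within 1000 bp of a protein-coding gene start, in 137 (2.61%). The promoter share moved to 5.30% with summits clustered within 250 bp, to 4.69% over every transcript start and to 1.296% with 500 bp windows. Promoters made up 16.7% of regions called in all 6 libraries, 5.88% of those called in DAC libraries alone and 9.84% of all merged regions. Within control strength the gap was smaller. In the weakest part of control rank promoters made up 2.71% of closed and 4.48% of all-6 regions. In the second part they made up 2.33% and 4.8%, and in the third 2.26% and 7.06%. In the strongest part, where no region closed, they were 39.7% of all-6 regions. The median distance to a protein-coding gene start was 31552 bp for closed regions, 23075 bp for regions called in all 6 and 43399 bp for regions called in DAC alone.

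The median CpG density was 0.912 per 100 bp in closed regions, against 1.39 in regions called in all 6, 3.04 in the 17563 regions called in DAC alone and 1.40 in all merged regions. Only 41 closed regions (0.782%) were island-like, meaning a ratio of observed to expected CpG above 0.6 and a GC content above 50%, against 14.1% of regions called in all 6 and 29.1% of those called in DAC alone. Soft-masked repeats covered most of 371 closed regions (7.07%), against 4.82% of the all-6 class, 46.6% of the DAC-alone class and 14.8% of all merged regions. Within control strength the order against the all-6 class turned. In the weakest part of control rank the repeat share was 7.67% in closed and 11.75% in all-6 regions, and in the second 5.59% and 7.73%. In the third part it was 5.88% and 5.1%. In CpG density the closed regions lay below, and the DAC-alone regions above, the regions called in all 6.

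The share of control regions that closed fell stepwise with the number of CpG dinucleotides in the 200 bp at the summit. It was 10.9% with 0 CpG, 9.57% with 1, 8.14% with 2, 7.25% with 3, 5.89% with 4 to 5, 3.81% with 6 to 9 and 0.432% with 10 or more. Regions called in all 6 libraries had a median CpG density of 1.25 per 100 bp in the weakest part of control rank and 2.23 in the strongest, so the same shares were taken within the parts of equal strength. In the weakest part they ran from 29.0% at 0 CpG to 6.43% at 10 or more, and in the second part from 9.80% to 1.35%, with every step downward in each. CpG count thereby ordered the share closed among regions of like control strength as well.

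**Figure D3:**
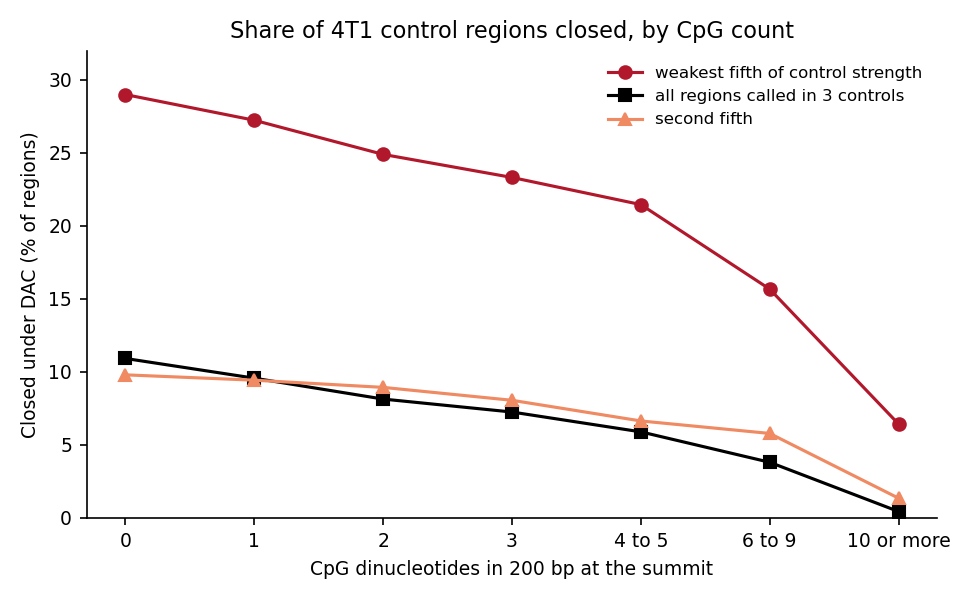
Percent of regions called in 3 controls that were closed under DAC (vertical axis) by the number of CpG dinucleotides in 200 bp at the summit (horizontal axis). Lines give the weakest part of control rank, all regions and the second part. Each line falls from left to right, for all regions from 10.9% to 0.432%.

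Of 21 motifs searched, in either orientation, in 200 bp centred on the strongest summit, TEAD and RUNX showed the largest excess, in percentage points, of closed over all-6 regions. That summit was a control one for closed regions, while for all-6 regions it could be a DAC one. A TEAD match was present in 825 closed regions (15.7%), against 11.4% of regions called in all 6, 6.23% of those called in DAC alone, 10.4% of all merged regions and 7.28% of windows 1 kb away from the closed regions. A RUNX match was present in 597 closed regions (11.4%), against 7.52%, 3.51%, 7.22% and 5.01% in the same order. Within strength, the TEAD share was 15.2% in closed and 11.0% in all-6 regions of the weakest part, 16.2% and 11.4% in the second, and 22.6% and 12.1% in the third. The RUNX shares in these parts were 11.1% and 7.79%, 11.6% and 7.90%, and 14.03% and 7.64%.

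AP-1 was the commonest motif by number but not raised in share. It was present in 1484 closed regions (28.3%), against 34.8% of the all-6 class, 15.1% of the DAC-alone class and 27.3% of all merged regions. Windows 1 kb away from the closed regions held it in 3.03% of cases. In the weakest part of control rank the shares were 27.5% in closed and 32.8% in all-6 regions. More than a single AP-1 match occurred in 79 closed regions (1.51%), against 4.51% of the all-6 class, while AP-1 and TEAD together occurred in 187 (3.57%), against 4.29%.

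CTCF and the motifs of CpG-rich promoters were scarcer in closed regions. A CTCF match was present in 262 (4.995%), against 9.18% of the all-6 class and 6.93% of all merged regions, and in the second part of control rank the shares were 6.59% and 12.4%. ETS matches (CCGGAAG) were found in 0.782% of closed regions, against 4.16% of the all-6 class, SP matches (GGGGCGGGG) in 1.18% against 3.55%, and NRF1 matches (GCATGCGC) in 0.114% against 1.05%. All 3 of these sequences contain a CpG. Of 4 motifs common in the DAC-alone class, 3 were scarcer in closed than in all-6 regions, with CRE (TGACGTCA) in 0.210% of closed regions, against 14.3% of that class, NFY in 0.801% against 25.7%, and YY1 (AAGATGGC) in 1.12% against 21.03%. FOX (TGTTTAC), in 21.6% of the DAC-alone class, was in 3.05% of closed regions, against 2.75% of the all-6 class. The motif of GATA factors, AGATAAG, in either of its forms with A or T first, was in 4.19% against 2.89% of the all-6 class, but also in 5.19% of the windows 1 kb away, so it was not higher at the summit. CEBP (TTGCNNAA) was in 8.68% of closed regions, against 6.91% of the all-6 class and 8.10% of the windows 1 kb away. At least 1 of AP-1, TEAD, RUNX and CTCF was present in 2733 closed regions (52.1%), and 2512 had none of them.

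**Figure D4:**
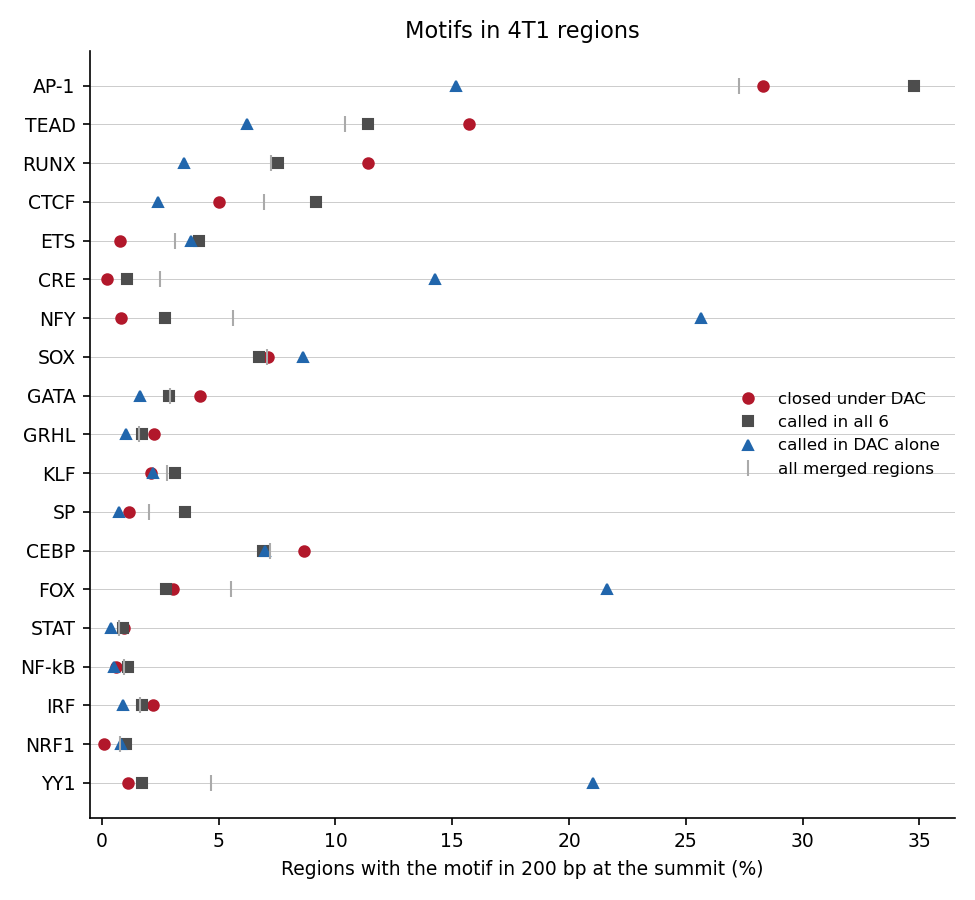
Percent of regions (horizontal axis) with each of 19 motifs (vertical axis) in the 200 bp at the summit, for regions closed under DAC, called in all 6 libraries, called in DAC alone, and all merged 4T1 regions. The closed regions lie to the right of the other classes for TEAD (15.7%) and RUNX (11.4%) and between them for AP-1 (28.3%) and CTCF (4.995%).

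The matches were centred on the summits. TEAD matches fell in the 2 central bins of 20 bp in 2.08% of closed regions per bin, against 0.776% per bin beyond 400 bp, and RUNX matches in 1.59% against 0.560%. For AP-1 the values were 4.97% against 0.324%. Regions called in all 6 had 1.43% for TEAD, 1.03% for RUNX and 5.06% for AP-1 in the central bins. In the DAC-alone class the central TEAD share, 0.683%, did not exceed its own share beyond 400 bp, 0.707%. The control summits of a closed region lay close together, with a median spread of 40 bp between the 3 libraries and a spread within 50 bp for 59.4% of regions.

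**Figure D5:**
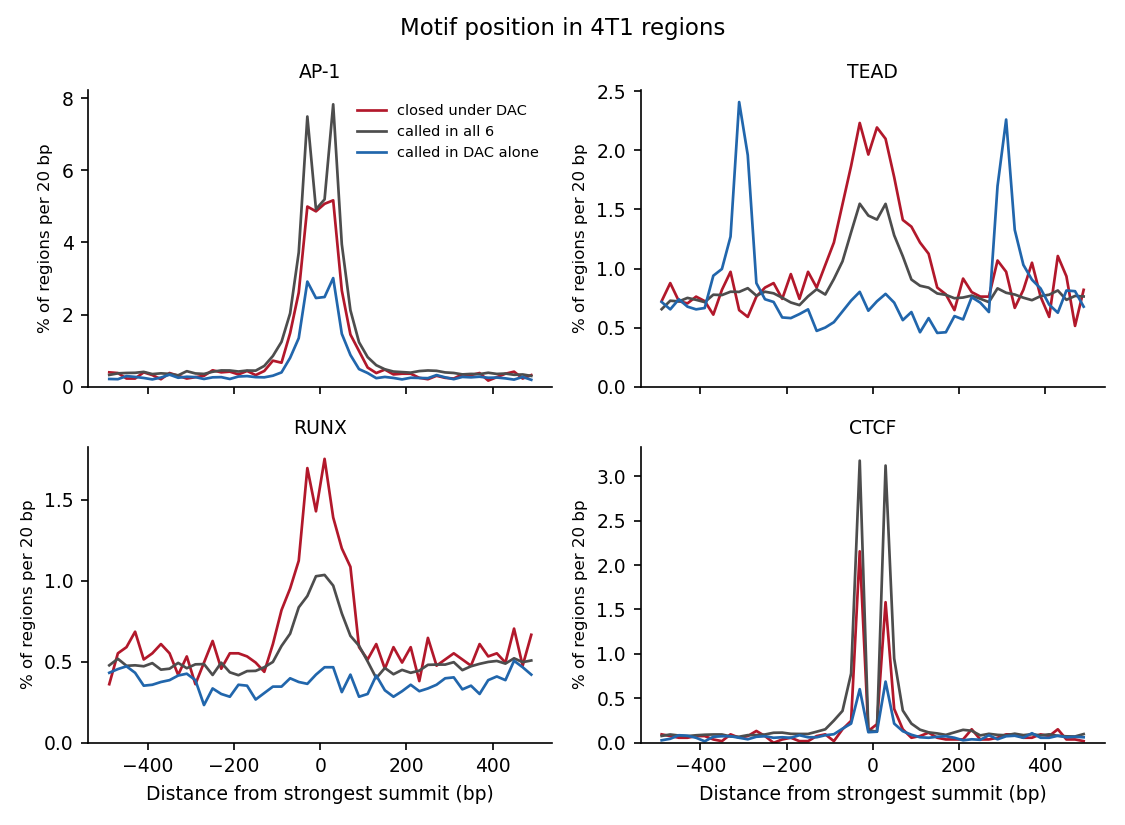
Percent of regions with a match per 20 bp bin (vertical axes) by distance of the match from the strongest summit (horizontal axes, −500 to 500 bp) for AP-1, TEAD, RUNX and CTCF. Lines give regions closed under DAC, called in all 6 libraries and called in DAC alone. For TEAD and RUNX the closed regions lie above the all-6 regions at the centre (2.08% against 1.43% and 1.59% against 1.03%).

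Counted the other way, 8.75% of the control regions with TEAD and 9.36% of those with RUNX were closed, against 6.6% of all. GATA stood at 8.998%, GRHL (AACNGGTT) at 8.36%, IRF (AAANTGAAA) at 8.07% and CEBP at 7.99%. Like GATA, IRF was not higher at the closed summits, with 2.19% there and 2.73% in the windows 1 kb away. In the weakest part of control rank GRHL stood at 30.4%, TEAD at 29.2% and RUNX at 28.8%, against 23.8% of all, and in the second part GRHL at 6.95%, TEAD at 10.7% and RUNX at 10.99%, against 8.04%. The lower shares were 5.501% with AP-1, 3.68% with CTCF, 1.42% with ETS and 0.826% with NRF1. In the weakest part AP-1 stood at 21.3%, CTCF at 15.8% and ETS at 18.6%, against 23.8% of all. In the second part they stood at 7.60%, 4.45% and 2.05%, against 8.04%. NRF1 was not taken within parts. At promoters 1.19% of control regions closed, in introns 7.89% and between genes 7.24%. Control regions made mostly of repeats closed in 9.07% of cases. The shares by place and for repeats were not taken within parts of control rank. RUNX matches were present in 22.1% of the 371 closed regions made mostly of repeats. The RUNX share over all control regions made mostly of repeats was not taken, so this value cannot be called particular to closed ones. Closed regions at the floor held AP-1 in 32.6% and TEAD in 16.7%, and crowded ones in 21.3% and 13.99%, so the TEAD share was above the all-6 share in both.

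Chromosome X closed more often than the autosomes. Of its 1708 control regions 176 (10.3%) were closed, against 6.52% of the autosomal ones, where single chromosomes ran from 5.23% on chromosome 19 to 8.02% on chromosome 2. In the weakest part of control rank the shares were 33.6% on X and 23.5% on autosomes, in the second 11.99% and 7.94%, and in the third, with 4 closed regions on X, 1.11% and 1.39%. On X, TEAD matches were in 22.7% of closed regions and AP-1 in 31.2%, and neither share was taken over all control regions of X.

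The 25 closed regions of highest rank, from 73.4 down to 56.5, fell into 2 kinds. In 11 of them the fold enrichment was above 10 in all controls, and in the other 14 it was below 10 in all controls. By local background, 5 stood at the floor in all controls and 20 on a raised background. Of the 25, 17 were intronic, 3 intergenic, 3 at promoters and 2 exonic, 18 had no peak in any B16F10 library, and 8 held RUNX, 6 TEAD, 4 AP-1 and 1 CTCF.

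The strongest of the first kind lay in an intron of Anapc1, which encodes a scaffold subunit of the anaphase-promoting complex (chr2:128658301-128658758). No DAC library listed a peak there, and the controls had fold enrichments of 17.5, 19.4 and 19.5 on pileups of 103, 116 and 113 reads. All 3 controls were high, at about the same level. An intron of Chd7, a chromatin remodeller, held a region (chr4:8795579-8796420) with no DAC peak and control fold enrichments of 17.8, 19.8 and 16.1. A region in an exon of Atad1, a mitochondrial ATPase that extracts misplaced membrane proteins, had 16.2, 16.2 and 16.6 in the controls.

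An intergenic region whose nearest gene start, at 1243561 bp, is that of Nr2f1, an orphan nuclear receptor (chr13:79442826-79443659), held both a TEAD and a RUNX match. It had no DAC peak, and 79, 80 and 94 reads in the controls at fold enrichments of 15.6, 14.9 and 18.96. The intronic region of Cdc14a, a phosphatase, also carried RUNX and had 16.3, 14.4 and 13.6. The intronic region of Ano1, a calcium-activated chloride channel (chr7:144700534-144700991), carried TEAD and had 12.1, 11.4 and 12.6. The remaining regions of this kind were nearest to Rbms1, Mgme1, Slc8a1, Mpdz and Tln2, at fold enrichments from 12.9 to 16.9. Mpdz is a scaffold of tight junctions and Tln2 a talin that ties integrins to actin. Of these 11 regions, that nearest to Mgme1, inside an intron of Gm5535, was called in all 6 B16F10 libraries, and the other 10 had no B16F10 peak.

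In the second kind the pileups were higher but the surroundings were too. A region in an intron of Pdlim2, whose product restrains NF-kB (chr14:70169244-70169691), had the highest rank of all. It had no peak in 4T1 DAC libraries and 203, 208 and 196 reads in the controls, yet fold enrichments of 8.95, 8.45 and 8.88, and it held an AP-1 match. The P2ry2 intron, in a gene for a nucleotide receptor (chr7:101007864-101008284), had 154, 184 and 158 reads at 6.10, 6.63 and 6.21, and the Tex264 intron, in a gene for a receptor of endoplasmic reticulum autophagy, 185, 205 and 195 reads at 5.81, 6.01 and 6.21. RUNX matches were present in introns of Entpd3, an ectonucleotidase, at 8.67, 9.25 and 8.99, of Mark2, a polarity kinase, at 4.56, 4.57 and 5.05, and of Sept11, a septin, at 5.55, 5.33 and 4.92. The regions in introns of Ralgps1, Aff1 and Cacna1a and in an exon of Srrm2 lay at fold enrichments from 4.29 to 6.06 in the controls. The first 2 of these were called in all 6 B16F10 libraries and the other 2 in none. The sequences of the P2ry2, Tex264, Entpd3 and Cyb561 regions are those printed above.

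The closed promoters were CpG-poor members of their kind. The 137 regions covered the start windows of 142 genes and had a median CpG density of 1.78 per 100 bp, against 5.85 for the 11518 control promoter regions, and 18 of them were island-like. For 79 of the genes no region called by any DAC library lay in the start window, while 62 had another region there called in all 3 DAC libraries. A closed promoter region therefore did not mean a promoter without any peak under DAC. By rank the first was that of Def8, a regulator of lysosome position, with no DAC peak and 199, 203 and 224 reads in the controls. It was followed by those of Slmap, a STRIPAK component that restrains Hippo kinases, with 157, 184 and 191 reads, and Pik3ip1, an inhibitor of PI3-kinase, with 173, 187 and 168. The Slmap region, outside the gene body, was also called in all 6 B16F10 libraries.

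Next came the promoter regions of Acsl3, a fatty acid activating enzyme, C1qtnf1, a secreted C1q-like protein, and Klhl21, an adaptor of a ubiquitin ligase. C1qtnf1 held both AP-1 and TEAD and had 236, 288 and 233 reads in the controls at fold enrichments of 2.91, 3.34 and 2.97. Otub1, a deubiquitinase, Spink13, Ripor3, Prpsap1, Nme5 and Aatk completed the 12 of highest rank. Spink13 (chr18:62740286-62740898) had fold enrichments of 8.33, 7.80 and 10.3, and Nme5 (chr18:34578726-34579326) 8.38, 10.1 and 7.98. The Nme5 region stood at the genome-wide floor in all controls, with 42, 54 and 39 reads.

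By nearest gene start, 3806 of 21728 protein-coding genes (17.5%) had at least 1 closed region, and 118 had 4 or more. The most were found at Gm5148, with 10 of its 28 control regions, followed by Tbl1xr1, a corepressor subunit, with 8 of 35, Trib2, a pseudokinase, with 8 of 46, and Zeb2, a zinc-finger repressor that drives epithelial-mesenchymal transition, with 8 of 32. Arhgap26 had 7 of 33, Efnb2, the ephrin-B2 ligand, 7 of 38, and Mpdz 7 of 25. Cd47, whose protein inhibits phagocytosis, had 6 of 29, Jcad, a junctional protein, 6 of 19, and Maf, a basic leucine zipper factor, 6 of 33. Mtap, Nfib, Nr2f1 and Nrp2 also had 6 each, so the last 3 of these 10 genes stand by alphabet among 7 that tie. These counts also depend on how much sequence is nearest to a gene, and Zeb2 had 20 regions called in all 6 libraries and 6 called in DAC alone.

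At Zeb2 all 8 closed regions lay outside the gene body, spread over chr2:45514743-46408567, at 397453 to 1291026 bp from the gene start. At Maf, regions 551445 and 607400 bp from the gene start lay in introns of Wwox. The nearest gene start is thus a label of place here. The strongest region at Zeb2 (chr2:45859588-45860354) had no DAC peak and 36, 39 and 33 reads in the controls, and the weakest had 23, 17 and 22. At Mpdz the intronic region named above was joined by an intergenic one (chr4:81829849-81830319) with 57, 64 and 60 reads, and both carried TEAD. At Cd47 an intronic region (chr16:49832445-49832861) with TEAD and RUNX had 58, 63 and 50 reads at fold enrichments of 11.5, 11.8 and 10.2, and another intronic region with TEAD had 110, 119 and 114 reads on a raised background. All 6 regions at Jcad lay within chr18:4514365-4775643, with 37 to 48 reads in control 1.

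Gene lists were read by the share of their control regions that closed, beside 6.6% for all. The list of epithelial-mesenchymal transition and matrix genes had 37 closed of 299 control regions (12.4%), at 15 of its 25 genes. The regions of highest rank were those of Col5a1, a fibrillar collagen, in an intron (chr2:27888802-27889627) with 167, 185 and 176 reads in the controls, and of Vim, vimentin (chr2:13572078-13572488), with 193, 207 and 185 reads and both AP-1 and TEAD. The most closed regions were at Zeb2, Thbs1, a matricellular glycoprotein, with 5 of 32, Fn1, fibronectin, with 5 closed regions, and Tnc, tenascin-C, with 4. Those at Zeb2 all lay 397453 bp or more from its start, and those at Tnc up to 497797 bp. The housekeeping list stood as high, with 9 of 76 (11.8%), at Ywhaz, Hprt, Tubb5, Ppia and Pgk1. At Thbs1 the region of highest rank (chr2:118012275-118012669) had 74, 75 and 45 reads in the controls and no DAC peak, and 4 of the 5 regions there held AP-1. At Fn1 the region of highest rank (chr1:71909442-71910276) had 44, 43 and 53 reads and held TEAD.

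YAP and TEAD target genes had 25 closed of 317 control regions (7.89%), at 14 of 25 genes. Ccnd1, cyclin D1, and Ccn2, a matricellular protein used as a YAP reporter, had 4 each. By rank the first were a region nearest to Ccn1 and one nearest to Lats2, a Hippo kinase, which had 38, 49 and 40 reads in the controls and an AP-1 match. The region nearest to Ccn1 (chr3:145627926-145628246) had 67, 68 and 64 reads in the controls at a fold enrichment of 8.78 in control 1. AP-1 subunit genes had 12 of 146 (8.22%), among them 6 at Maf, 2 at Fosl2 and 1 each at Atf3, Fosl1 and Batf3, and 0 at Fos, Fosb, Jun, Junb and Jund. RUNX and TEAD factor genes had 3 of 150 (2.00%), 1 each at Runx1, Tead1 and Runx3.

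Integrin and focal adhesion genes had 15 of 288 (5.21%), led by Tln2, Itgb3 and Itgb4. The Itgb3 intron (chr11:104638953-104639297) had 83, 106 and 95 reads in the controls and held RUNX. Epithelial junction and keratin genes had 9 of 206 (4.37%), led by Jup, plakoglobin, Trp63 and Krt18. Growth factor receptors and ligands had 21 of 304 (6.91%), with 5 at Tgfbr2, the type II receptor of TGF-beta, and 3 at Tgfa, a ligand of the EGF receptor, where the region of highest rank had 66, 70 and 66 reads. The only closed region at Pdgfc, a platelet-derived growth factor, had 46, 44 and 41 reads and both AP-1 and TEAD. Chemokine, cytokine and interferon response genes had 9 of 180 (5%), with 5 at Cxcl12 and 1 each at Cxcl5, Cxcl9, Ccl2 and H2-D1. Apart from the matrix and housekeeping lists, and the low share at RUNX and TEAD factor genes, the shares of the lists given here lay between 4.37% and 8.22%.

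The median distance from a closed region to the nearest other closed one was 83421 bp, with 120 (2.29%) having another within 2 kb. No expectation for random placement was taken, so these values do not say whether closed regions were scattered or grouped. The most in any window of 1 Mb was 13, among 138 control regions (chr2:167000001-168000000), and 21 windows held 10 or more. A window on the same chromosome (chr2:117000001-118000000), which holds the Rasgrp1 region shown above, had 12 closed of 56 control regions (21.4%) and 1 region called in DAC alone. The window holding part of the Gm5148 cluster (chr3:37000001-38000000) had 11 of 55 (20%). The median distance from a closed region to the nearest DAC-alone region was 55365 bp, against 43123 bp for regions called in all 6, so closed regions lay no nearer to the gained ones.

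The B16F10 libraries were not used by the rule. A peak overlapped 14.1%, 15.8% and 13.98% of the closed 4T1 regions in the B16F10 DAC libraries, against 15.7%, 14.5% and 15.6% in the B16F10 controls. That is 14.6% ± 1.02 under DAC and 15.2% ± 0.669 in controls (SD, n = 3 each), and the groups overlap. For regions called in all 6 4T1 libraries the shares were 42.3% ± 1.10 under DAC and 39.6% ± 0.792 in controls, without overlap. Over all merged 4T1 regions they were 24.7% ± 0.92 and 23.03% ± 0.698, also without overlap. In total 4021 closed regions (76.7%) had no peak in any B16F10 library, against 50.9% of the all-6 class and 68.6% of all merged regions.

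Of the closed regions 585 had a peak in all 3 B16F10 controls. At 447 of these (76.4%) all 3 B16F10 DAC libraries also had a peak, and at 22 (3.76%) none had. For the all-6 class the share lost in B16F10 was 0.466%, at a median B16F10 rank of 67.8, against 38.2 for the closed regions. B16F10 had 704 closed regions of its own, 0.886% of its merged regions, and 23 of them overlapped a closed 4T1 region, which is 3.27% of the B16F10 and 0.438% of the 4T1 set. Of all 79461 merged B16F10 regions 1.55% overlapped a closed 4T1 region. Of those that overlapped a region called in 3 4T1 controls, 23 of 169 B16F10 closed regions (13.6%) and 3.34% of all B16F10 regions did so. The strongest in 4T1 of the regions with 3 B16F10 control calls and 0 B16F10 DAC calls lay in an intron of Abcc4, a drug efflux transporter (chr14:118702327-118702542), with 91, 87 and 91 reads in the 4T1 controls. An intergenic one on chromosome 15 (chr15:59908440-59908855) held AP-1 and had 50, 46 and 47 reads.

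Whether a closed region was open in B16F10 went with its motif. A B16F10 control peak was present at 147 of the 262 closed regions with CTCF (56.1%), at 112 of the 1484 with AP-1 (7.55%), at 155 of the 825 with TEAD (18.8%) and at 91 of the 597 with RUNX (15.2%), against 19.5% of all closed regions. Closed promoters had one in 30.7% of cases. The closed regions with 3 B16F10 control calls held AP-1 in 10.1% and CTCF in 11.97%, and those with no B16F10 peak held AP-1 in 33.3% and CTCF in 2.41%, while TEAD was at 18.1% and 16.1%.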

How the data were processed

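Peak lists of 12 ATAC-seq libraries were used, 1 list per library, called by the authors on each library alone and ending at a q-value of 0.05. The submitters' processing notes name Bowtie2, Picard, MACS2, DiffBind, ChIPseeker, FastQC, MultiQC and, as the build, mm10, and their versions and options are not given in the sources used here. The deposited fold enrichment is a ratio of pileup to local background within a library. The −log10 of the p-value and of the q-value that the authors deposited belong to a peak within its library and grow with depth, so strength was read as a percentile. The deposited score and summit position are also the authors' values. Read totals were not used here, so no counting intervals are given for peaks. The labels' protocols give the treatment, the bead removal of dead cells, the size selection of the libraries and the minimum depth.

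Intervals of the 6 4T1 libraries on chromosomes 1 to 19 and X were merged where they overlapped by at least 1 bp. Pileup and local background at each summit were solved from fold enrichment, as (pileup + 1) over (background + 1), and the Poisson p-value. A solution was kept where it met the deposited −log10 p within 0.002, and values of −log10 p under 300 were used. Between 99.95% and 99.99% of the 4T1 peaks in that range were solved. Sequence came from GRCm38, where lower case marks repeats, and genes from GENCODE M21. Motifs were exact matches in the 200 bp around the strongest summit, that of highest −log10 q percentile among the 6 4T1 libraries. Closed regions were thus centred on a control summit, while regions with DAC peaks could be centred on a DAC summit. Promoters were protein-coding gene starts plus and minus 1000 bp. Each region was assigned to the nearest protein-coding gene start. Python 3.11.15, NumPy 2.4.6, SciPy 1.17.1 and matplotlib 3.10.9 were used, and the merging, motif and pileup steps were tested on simulated data.

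The members, the 10 gene lists and the marker lists were chosen with earlier results of these data known, and no test was made over members, regions or genes. Of the lists, 1 list and 1 gene are not reported here. Named are the 25 closed regions of highest rank, the 12 promoter regions of highest rank, the 10 genes with the most closed regions, the 3 genes of highest-ranking region per list with every list gene that has 4 or more, and the printed sequences, chosen by motif and rank, outside chromosome 18 and annotated UTRs. Other list genes and the regions closed in both lines were named after their values were seen. Alternatives were stricter peaks, equal list lengths, other overlaps and merging, 2 of 3 controls, other motif, CpG and promoter windows, 3 B16F10 controls and each library left out.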

Additional observations from a re-analysis of the deposited data

How the results depend on the processing

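Of 84 alternative values, 54 stayed within 1.5 times the main count or within the 95% interval of the main share or median, and 30 did not. The settings without 1 library keep 99.73% to 100% of the 5245 regions, so their shares and medians had little room to move. They add to the 54 largely by construction. The 95% intervals treat regions as independent, which they need not be, and serve only as a yardstick. The number of closed regions, 5245, became 8114 with peaks of fold enrichment of at least 5 in every library, and these cover only 29.5% of the 5245. It became 8904 with equal numbers of peaks per library (covering 92.2%), 10024 where a DAC peak had to cover 50% of the control bases, and 8724 with 2 of 3 controls. Leaving out 1 library gave 5912 to 6908. The AP-1 share, 28.3%, became 29.7% at that fold enrichment, 29.9% with the cover rule, 33.1% over whole regions and 21.7% in 100 bp, and 27.8% to 28.8% without 1 library. The median CpG density, 0.912, became 0.940 at −log10 q of at least 5, 1.00 at fold enrichment of at least 5, 0.953 with equal peaks, 0.948 with the cover rule, 0.997 with summits clustered within 250 bp and 1 in the summit window, and 0.898 to 0.929 without 1 library. The promoter share, 2.61%, became 3.31% at fold enrichment of at least 5, 5.30% with clustered summits, 1.296% with 500 bp windows and 4.69% over every transcript start, and 2.52% to 2.83% without 1 library. The repeat share, 7.07%, became 6.21%, 5.48%, 6.38%, 5.85% and 8.001% with stricter q, stricter fold enrichment, equal peaks, the cover rule and 2 of 3 controls, and 6.73% to 7.64% without 1 library. The share with a B16F10 control peak, 19.5%, became 21.01%, 30.0%, 22.0%, 23.4% and 22.3% with stricter q, stricter fold enrichment, equal peaks, the cover rule and clustered summits, 11.2% when 3 B16F10 controls were required, and 19.1% to 21.1% without 1 library, the highest without DAC replicate 2. The causes of these shifts were not tested, except that rules asking more of a DAC peak or less of the controls admit more regions by construction. No paired analysis was possible because the results come from no test over libraries: they are counts, shares and medians over regions, and the background and B16F10 shares per library are given as means without a test. The part of depth and of the higher DAC background in the closed calls was not tested.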
